A study of Mus musculus with 36 samples.

Results

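The interferon regulatory factors (IRFs) are a family of transcription factors, and 8 of their genes were followed here as loci of accessible chromatin: Irf1, Irf2, Irf3, Irf4, Irf5, Irf7, Irf8 and Irf9. A peak belonged to a locus if its interval overlapped the gene body or the 20 kb on either side of it, with gene positions from RefSeq on GRCm38.p6 (mm10). This rule used positions only and took 108 of the 119751 deposited peaks, of which 107 passed the filter on low counts and were tested. Accessibility came from ATAC-seq, which reads where a transposase can cut and tag DNA, in dendritic cells grown from the bone marrow of female C57BL/6J mice, 6 to 8 weeks old, with GM-CSF at 15 ng/mL. All groups are wild-type cultures of this one kind, and they were stimulated for 6 h. There are 36 libraries, 2 for each of 18 groups: a control without ligand (Ctrl), 6 single ligands, 8 pairs and 3 triplets. Single ligands, with their letters, are Z for depleted zymosan, P for PAM, L for LPS, H for HMW, S for SeV (an abbreviation in use for Sendai virus) and cG for 3',3'-cGAMP. The pairs are PL, PH, LH, PS, PcG, ScG, ZS and ZcG, and the triplets are PLH, PScG and ZScG, each named by the letters of its ligands. Doses are not given in the labels, and nothing in them says that the libraries of a group came from separate mice or cultures, so that each p-value measures the spread between these libraries, which may be technical.

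IRFs share a DNA-binding domain that recognises GAAA-containing elements, such as the interferon-stimulated response element (ISRE). Pattern recognition receptors lead to phosphorylation of IRF3, IRF5 and IRF7, which switch on type I interferon genes, and secreted interferon then acts through its receptor and a complex that contains STAT2 and IRF9 on many genes, Irf7 and Irf1 among them. IRF2 competes with IRF1 for the same sites, whereas IRF4 and IRF8 bind with partners such as PU.1 and BATF factors and are needed for the development of dendritic cell subsets.

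The 250 bases before the RefSeq start are shown for 5 members, since the motifs in them or the changes at their start peaks are described below. All 8 members matched the RefSeq promoter table, with 11 starts in all. Each stretch is in mm10, is written 5′ to 3′ on the gene's strand and lies wholly inside the start peak. They are chr11:53769764-53770013 on the plus strand for Irf1 (the first of its starts), chr8:46739495-46739744 on the plus strand for Irf2, chr13:30748983-30749232 on the plus strand for Irf4, chr7:141266425-141266674 on the minus strand for Irf7 and chr8:120736108-120736357 on the plus strand for Irf8 (the first of its starts). Capitals mark matches, on either strand, to the ISRE (GAAA, any 2 bases, GAAA), the ETS-IRF composite element (GGAA, any 2 bases, GAAA), the STAT element GAS TTCNNNGAA, the AP-1 element TGANTCA or the kappaB consensus.
Irf1: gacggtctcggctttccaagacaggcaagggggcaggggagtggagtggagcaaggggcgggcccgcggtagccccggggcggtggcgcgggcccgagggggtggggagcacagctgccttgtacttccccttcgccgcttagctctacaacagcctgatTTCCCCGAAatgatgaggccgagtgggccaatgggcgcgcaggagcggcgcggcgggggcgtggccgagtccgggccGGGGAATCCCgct
Irf2: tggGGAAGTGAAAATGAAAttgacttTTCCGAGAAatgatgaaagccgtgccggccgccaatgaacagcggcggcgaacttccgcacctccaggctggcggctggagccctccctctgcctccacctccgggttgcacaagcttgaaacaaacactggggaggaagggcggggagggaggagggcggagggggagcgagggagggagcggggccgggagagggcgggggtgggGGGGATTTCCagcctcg
Irf4: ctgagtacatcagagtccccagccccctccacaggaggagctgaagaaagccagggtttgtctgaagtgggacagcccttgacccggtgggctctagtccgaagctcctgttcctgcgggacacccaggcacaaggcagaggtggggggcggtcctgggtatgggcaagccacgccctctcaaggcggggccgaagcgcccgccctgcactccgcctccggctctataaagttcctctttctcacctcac
Irf7: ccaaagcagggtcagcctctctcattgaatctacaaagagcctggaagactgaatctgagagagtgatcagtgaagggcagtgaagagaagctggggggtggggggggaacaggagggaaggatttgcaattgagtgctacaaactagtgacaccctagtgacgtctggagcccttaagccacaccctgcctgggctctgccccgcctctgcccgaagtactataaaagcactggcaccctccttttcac
Irf8: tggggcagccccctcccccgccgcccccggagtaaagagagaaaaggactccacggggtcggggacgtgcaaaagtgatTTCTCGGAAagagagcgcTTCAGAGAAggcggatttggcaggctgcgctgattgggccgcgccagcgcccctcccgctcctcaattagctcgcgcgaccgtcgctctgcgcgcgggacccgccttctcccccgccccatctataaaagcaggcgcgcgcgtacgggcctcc
In the Irf1 stretch, a GAS match lies from -90 to -82 and a kappaB match from -13 to -4, counted back from the start. The Irf2 stretch holds a composite match from -247 to -238 that overlaps an ISRE match from -241 to -232, a GAS match from -224 to -216 and a kappaB match from -17 to -8. Irf8 has GAS matches from -171 to -163 and from -153 to -145. The stretches of Irf4 and Irf7 hold none of these letters, nor do the 250 bases before the starts of Irf3, Irf5 and Irf9. Among all 32851 promoters of the table, the same stretch holds an ISRE match in 2.98%, a composite match in 2.30%, a GAS match in 7.02%, an AP-1 match in 6.75% and a kappaB match in 3.90%. A match describes the letters and is not a measured binding site.

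The loci differ in how many peaks they hold. Irf2, the longest gene, has 25 peaks, Irf1 has 17, Irf8 has 16, Irf5 has 15 (14 tested), Irf4 has 12, Irf3 has 9, Irf9 has 8 and Irf7 has 6. Peak widths ran from 200 to 3496 bp (median 464), and mean accessibility over the 36 libraries ran from 0.404 to 94.1 CPM (TMM-scaled counts relative to library size, median 2.2). The counts in these loci came to 6077 to 23006 per library, out of 8181254 to 21985891 counts outside the mitochondrial genome. Of the 108 peaks, 23 overlap another gene and 12 lie within 1 kb of another gene's start, all of them around Irf3, Irf5, Irf7 and Irf9, so that these peaks cannot be assigned to the IRF gene alone.

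Libraries also differed in the share of mitochondrial counts. The peak over the mitochondrial genome held 57.3% to 63.1% of the counts in the 10 libraries of Ctrl, Z, ZcG, ScG and ZScG and 44.1% to 58.1% in the other 13 groups, and it was left out of scaling and tests. In the latter, only 1 of the ZS libraries (the other had 51.0%) lay above 53.8%. The TMM factors split in the same way, at 0.807 to 0.921 in the 10 libraries with the higher share. In the other groups they were 1.00 to 1.14, apart from 0.916 in the ZS library with the higher share. How scaling and share are linked was not tested. The labels give no batch, and whether the share goes with the ligands was not tested. For the 13 stimulations with the lower share, a change against Ctrl and a change that goes with the share cannot be told apart, while Z, ZcG, ScG and ZScG against Ctrl, and all comparisons among P, L, H, S and cG, stay within one set. Against Ctrl, the former 4 stimulations gave 53 higher and 44 lower calls in 428 tests of IRF-locus peaks, and the other 13 gave 245 higher and 131 lower calls in 1391. Of all tested peaks, 4.16% were higher and 1.75% lower in Z. Either way, 21.6% changed in ZcG, 27.7% in ScG and 32.3% in ZScG. The shares of all peaks for the other 13 are given below. A difference between the sets that is particular to IRF loci was not tested. The label dendritic cell was checked at gene starts: all 8 dendritic cell genes of the list (Itgax, Flt3, Zbtb46 and others) had an accessible peak, with a summed level of 51.3 to 73.8 CPM per kb over the libraries. All 6 macrophage genes had one as well (56.6 to 83.4 CPM per kb), so the start peaks do not separate the former from macrophages. Start peaks were found for 2 of 6 neutrophil and progenitor genes, 1 of 4 B cell genes, 1 of 5 T and NK cell genes and 1 of 3 fibroblast genes. The sums cover unequal numbers of genes. Per gene, the median was 6.91 CPM per kb for dendritic cell, 10.4 for macrophage and 9.67 for neutrophil and progenitor genes. The B cell, T and NK cell and fibroblast genes with a start peak had 8.28, 19.3 and 6.10. The dendritic cell median was thus below all of these but the fibroblast value. The summed level at the neutrophil and progenitor start peaks was 30.0 and 33.6 CPM per kb in Ctrl, 24.6 and 30.5 in Z and 11.5 to 26.5 in the other stimulations. At the B cell gene it was 2.51 and 3.43 in Ctrl, 2.39 and 2.87 in P and 4.33 (H) to 20.9 (PScG) in the rest. The T and NK cell gene had 22.5 and 25.3 in Ctrl and 11.2 to 27.8 in stimulated libraries, and the fibroblast gene had 3.65 and 5.68 in Ctrl and 3.45 to 11 in the latter. The dendritic cell sum was 70.6 and 72.4 CPM per kb in Ctrl, 68.5 and 73.8 in Z and 51.3 to 68.9 in the other stimulations. The macrophage sum was 72.6 and 76.9 in Ctrl, 78.1 and 83.4 in P and 56.6 to 77.6 in the other stimulations. The sums at dendritic cell, macrophage, and neutrophil and progenitor genes and at the B cell gene thus moved with stimulation. Their part in the changes against Ctrl was not tested. The defining genes S100a9, Ly6g, Elane, Mpo, Cd79a, Pax5, Cd3e and Cd3d had no start peak. Changes in the share of cells of a kind and changes within cells cannot be told apart in these bulk libraries.

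Across the 17 stimulations, 77 of the 107 tested peaks were called against Ctrl at least once, that is, edgeR's quasi-likelihood test gave a Benjamini-Hochberg adjusted p under 0.05 over all 119464 tested peaks. Of these, 42 were called only higher, 34 only lower and 1 both ways, in different stimulations, and 30 were never called. The start peaks of Irf7, Irf1, Irf8, Irf5 and Irf2 were among those that rose, and the start peak of Irf4 was among those that fell. Summed over stimulations, 26.0% of the tests of IRF-locus peaks were called, against 25.2% for all peaks, so the loci as a whole changed about as often as the rest of the genome. By direction, 298 calls were higher (16.4% of the tests, against 13% for all peaks) and 175 lower (9.62%, against 12.3%). Under total-count scaling, in place of TMM, 463 were higher and 87 lower, where 20.7% of the tests of all peaks were higher and 6.41% lower.

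By single ligand, the balance of higher and lower calls varied. With P, 8 peaks were higher and 11 lower, where 11.1% of all tested peaks were higher and 9.45% lower. L gave 21 higher and 6 lower peaks (11.2% and 11.1% of all), and H gave 11 and 3 (5.21% and 5.46% of all). After S, 26 peaks were higher and 8 lower (14.1% and 13.8% of all), and after cG, 30 were higher and 5 lower (11.6% and 11.6% of all). Depleted zymosan changed few, with 3 higher and 2 lower (4.16% and 1.75% of all). The median log2 fold change over the 107 peaks was 0.28 for L, 0.23 for S, 0.20 for cG, 0.14 for H, -0.05 for Z and -0.19 for P, against medians over all peaks between -0.04 and 0.03.

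With combinations, PL changed 28 peaks either way (27.3% of all tested peaks changed), PH changed 26 (26.3%), LH 16 (21.8%), PS 34 (33.4%), PcG 40 (32.9%), ScG 33 (27.7%), ZS 29 (28.3%) and ZcG 28 (21.6%). Among triplets, PLH changed 29 (29.7%), PScG 45 (37.1%) and ZScG 31 (32.3%). PScG had the most calls at these loci, 29 higher and 16 lower. The split by direction depends on scaling. Scaling to total counts outside the mitochondrial peak moved the median of all peaks up by as much as 0.42 on the log2 scale. P then had 13 higher and 6 lower peaks, L 39 and 1, H 21 and 1, S 41 and 2, cG 43 and 3, Z 3 and 3, PL 28 and 4, PH 26 and 4, LH 22 and 2, and PS 38 and 3. PcG had 42 and 4, ScG 20 and 12, ZS 26 and 7, ZcG 11 and 15, PLH 31 and 3, PScG 39 and 5, and ZScG 20 and 12.

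**Figure D1:**
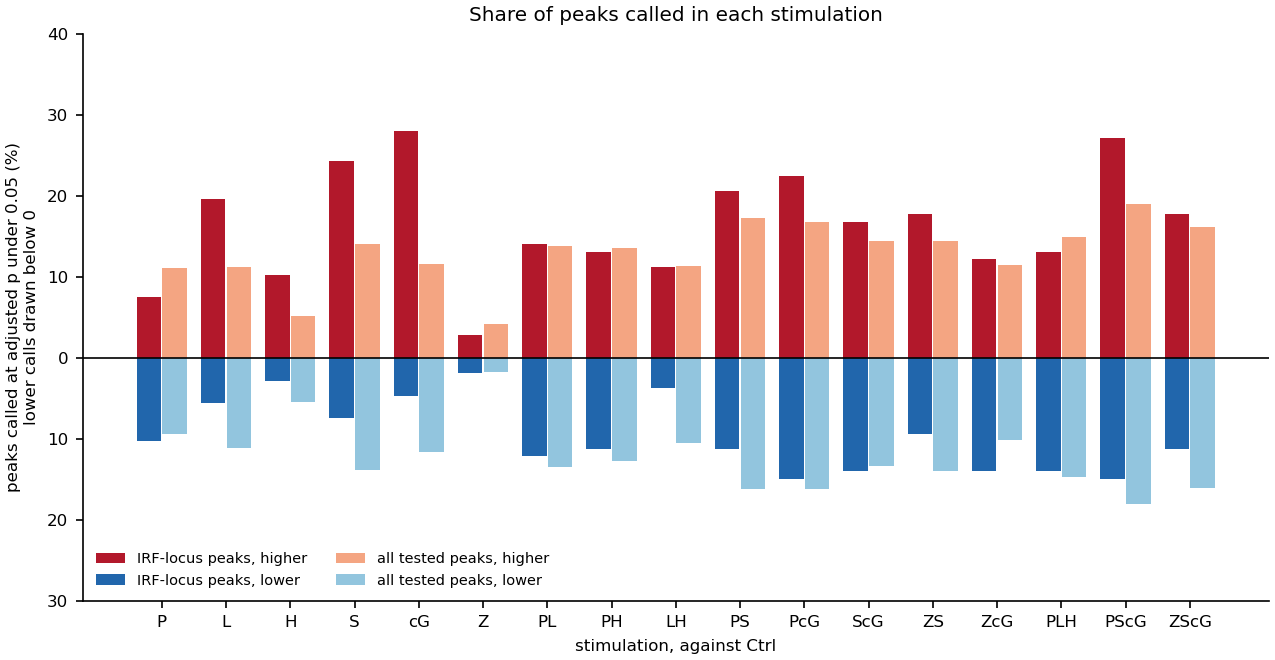
Bars give the percentage of peaks called higher (above 0) or lower (below 0) against Ctrl in each of the 17 stimulations, for the 107 IRF-locus peaks and for all 119464 tested peaks. For S, cG and L the IRF-locus bars reach further up than the bars of all peaks, and for P they do not.

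The balance of higher and lower calls against Ctrl also varied between the 8 loci, and it is given here as a description beside the 13% higher and 12.3% lower of all peaks. At Irf9 38 of 136 tests were higher and 1 lower, at Irf1 77 higher and 21 lower of 289, at Irf7 19 and 0 of 102, at Irf4 36 and 17 of 204, at Irf3 25 and 2 of 153, at Irf8 41 and 15 of 272, and at Irf5 21 and 14 of 238. All tests against Ctrl use the same Ctrl libraries and count a peak once per stimulation, so they are not separate observations. At Irf7, 16 of the 19 higher calls came from the start peak, and at Irf9 the 38 came from 4 peaks. Irf2 had more lower than higher calls, with 41 higher and 105 lower of 425, but under total-count scaling this turned to 62 higher and 50 lower. The other loci kept more higher than lower calls under that scaling, where 20.7% of the tests of all peaks were higher and 6.41% lower. Position within the locus moved with this under TMM scaling: peaks upstream of the start had 134 higher and 17 lower calls of 544, peaks at the start 38 and 12 of 136, peaks within the gene body 28 and 106 of 629, and peaks downstream of the gene 98 and 40 of 510. Irf2 holds 19 of the 37 body peaks, with 11 higher and 92 lower calls, and the other 18 had 17 and 14, so locus and position are not separate measures here. Under total-count scaling body peaks had 52 higher and 49 lower calls, upstream peaks 195 and 7, start peaks 81 and 4 and downstream peaks 135 and 27.

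Irf7 encodes the factor that amplifies interferon production and is itself an interferon-induced gene. Its start peak (chr7:141264642-141266887, 2246 bp, covering the start and part of the gene body) had 19.1 and 18 CPM in the Ctrl libraries. The single ligands gave 24.9 and 21.5 in P, 36 and 42.4 in L, 30.9 and 31.8 in H, 35.4 and 31.8 in S, 39.6 and 39.3 in cG and 24.7 and 27.1 in Z. Pairs gave 30.0 and 31.5 in PL, 30.9 and 28.8 in PH, 35.9 and 29.7 in LH, 26.3 and 26.1 in PS, 30.5 and 33 in PcG, 26.6 and 27.1 in ScG, 34.6 and 30.5 in ZS and 35 and 29.4 in ZcG. Triplets gave 30.1 and 30.5 in PLH, 25.4 and 24.6 in PScG and 29.5 and 30.5 in ZScG. Both libraries of every stimulation lay above both Ctrl libraries, with cG and L highest and P lowest. In the order of group means, neighbours overlapped except L over S, PH over ScG, ScG over PS and P over Ctrl. The log2 fold change was 1.09 ± 0.13 (SE) for cG (edgeR adjusted p = 5.7e-13), 1.08 ± 0.13 for L (4.6e-13) and 0.85 ± 0.13 for S (7.8e-09). Only P did not pass, at 0.32 ± 0.13 (adjusted p = 0.069; it passed under total-count scaling and in DESeq2), and the other 16 stimulations rose by 0.43 to 1.09. With either library of any compared group left out, 14 of the 16 calls held. The Z call was lost without a Z library and the PScG call without a Ctrl library. Of the other peaks of the locus, the one 2.6 kb upstream rose with L (0.53 ± 0.16) and cG (0.46 ± 0.16), and the peak 6.0 kb downstream of the start, which overlaps Phrf1, rose with L (1.66 ± 0.57, adjusted p = 0.023). All 3 of these calls were lost with a library left out.

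Irf1 encodes an activator that is induced by interferon gamma and by NF-kappaB. Its start peak (chr11:53768626-53770987) had 27.1 and 26.5 CPM in Ctrl, 24 and 21.3 in P, 35.4 and 38.2 in L, 39.6 and 36.2 in S, 44.7 and 38 in cG and 42 and 37.6 in ZScG. The L, S, cG and ZScG libraries all lay above Ctrl, and the P libraries lay below. It rose in 8 stimulations (L, S, cG, PS, ZS, ZcG, PScG and ZScG) by 0.32 to 0.62, the highest in cG (0.62 ± 0.12, edgeR adjusted p = 1.2e-05), and 5 of the calls held with any library left out. For P the value was -0.24 ± 0.13 (adjusted p = 0.16).

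The start peak of Irf2 (chr8:46739095-46742274), the gene of the IRF1 antagonist, is among the widest. It rose with L (0.29 ± 0.10), S (0.29 ± 0.10) and cG (0.39 ± 0.10), from 53.5 and 55.4 CPM in Ctrl to 60.6 and 72.1, 68 and 65.5 and 65.4 and 77.3. None of these 3 calls held in every fit with a library left out. The start peak of Irf5 (chr6:29526224-29529719), whose product acts downstream of Toll-like receptors on inflammatory cytokine genes, rose with L, S, cG and ScG by 0.30 to 0.54. It had 35.5 and 41 CPM in Ctrl and 51.9 and 59.3 in cG, and the cG call (0.54 ± 0.11, edgeR adjusted p = 3.1e-05) was the one that held with any library left out.

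For Irf3 and Irf9, which are present before stimulation as the latent sensor-activated factor and the DNA-binding part of the interferon-driven STAT complex, the start peaks were not called in any stimulation. The Irf3 start peak (chr7:44997054-44998242), shared with the start of Bcl2l12, had 16 and 20.8 CPM in Ctrl and group means from 15.8 in H to 22.1 in ZcG. Its unadjusted p was under 0.05 in 0 of 17 stimulations, and DESeq2 called it in 0. The Irf9 start peak (chr14:55603446-55605380), which overlaps Rnf31, had 26.9 and 26.1 CPM in Ctrl and group means from 25.1 in Z to 32 in L, with an unadjusted p under 0.05 in 1 stimulation and 0 calls by DESeq2. Under total-count scaling they were called higher in 6 and 10 stimulations, respectively.

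Irf4 and Irf8 are the members tied to dendritic cell lineages. The Irf4 start peak (chr13:30748897-30749979) was the only start peak that fell, and it had 15.3 and 15.1 CPM in the Ctrl libraries. With 1 ligand the values were 8.93 and 9.32 in P, 6.92 and 9.92 in L, 9.21 and 9.65 in H, 9.49 and 12.3 in S, 12.8 and 12.8 in cG and 11 and 15.9 in Z. With pairs they were 6.53 and 8.56 in PL, 7.17 and 6.68 in PH, 9.03 and 8.65 in LH, 8.85 and 9.61 in PS, 8.67 and 8.80 in PcG, 9.49 and 8.19 in ScG, 11.9 and 13.7 in ZS and 12.8 and 11.4 in ZcG. With triplets they were 7.89 and 7.60 in PLH, 11 and 9.11 in PScG and 12.6 and 13.1 in ZScG. Ctrl was the highest group, PH, PL and PLH were the lowest, and every stimulation other than Z lay below both Ctrl libraries. The peak fell in 12 stimulations, by 0.48 to 1.13 on the log2 scale, most in PH (-1.13 ± 0.20 SE, edgeR adjusted p = 7.9e-07), PL (-1.02 ± 0.20) and PLH (-0.97 ± 0.20). It was not called in cG (-0.24 ± 0.19, adjusted p = 0.38), Z, ZS, ZcG or ZScG, and 8 of the 12 calls held with any library left out. Of the 4 stimulations that share the higher mitochondrial share with Ctrl, ScG was called lower (-0.77 ± 0.20, adjusted p = 0.0014) and the rest were not. Total-count scaling left 4 calls, and the highest of the 17 values was then 0.10. The Irf8 start peak (chr8:120735734-120737038) rose in 7 stimulations by 0.38 to 0.50, with 16.7 and 12.5 CPM in Ctrl and 17.6 and 23.6 in ZcG. All 7 of these calls were lost without Ctrl replicate 2, the lower of the Ctrl values.

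**Figure D2:**
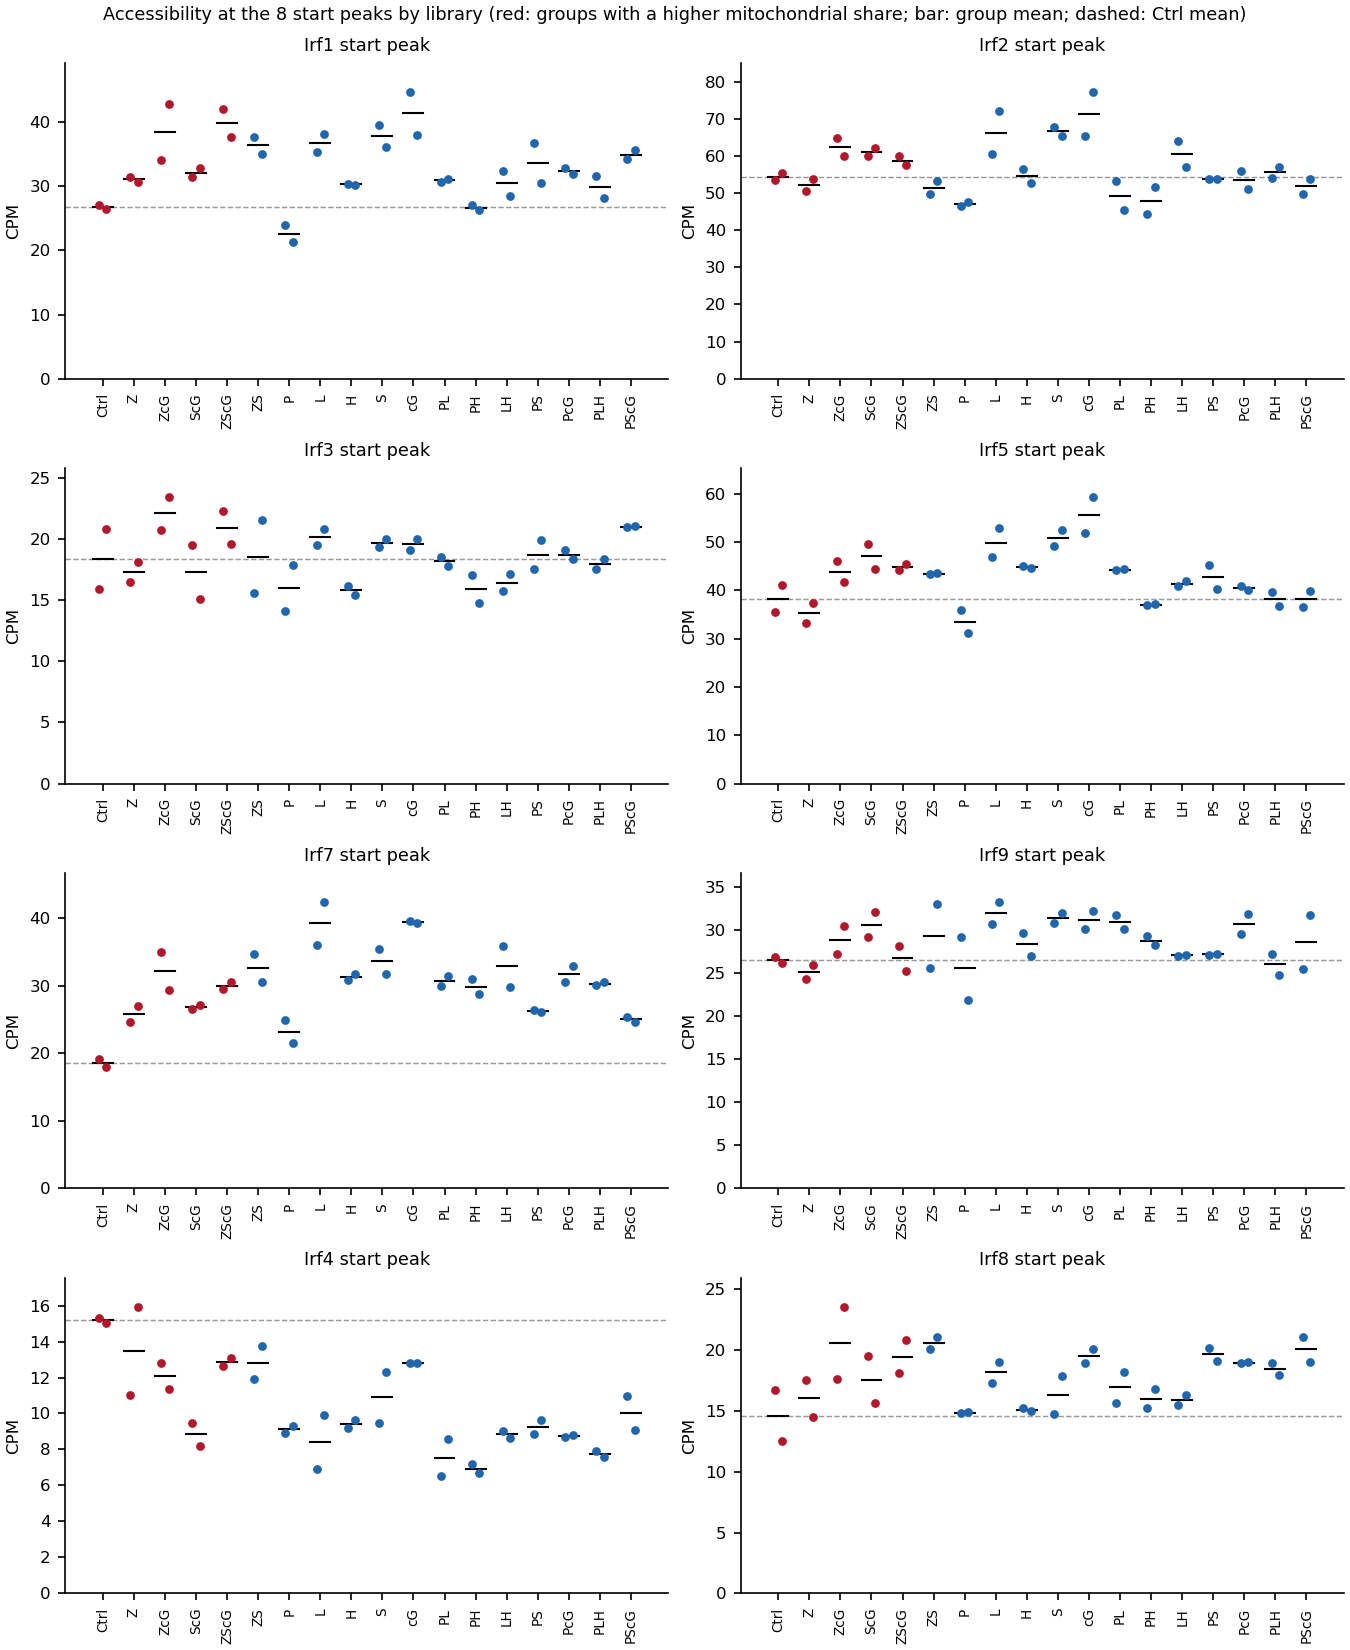
Each panel shows CPM at the start peak of a member in the 2 libraries of each group, with the group mean as a bar, the Ctrl mean as a dashed line and, in red, the groups with the higher mitochondrial share. At Irf7 all stimulated libraries lie above Ctrl (18 and 19.1 CPM), whereas at Irf4 Ctrl (15.1 and 15.3 CPM) is the highest group.

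Among start peaks, group means of log2 CPM over the 18 groups were most alike for Irf2 and Irf5 (Pearson r = 0.81), and the lowest values were those of Irf4 with Irf7 (r = -0.23) and Irf4 with Irf9 (r = -0.23). Each r is over 18 group means from shared libraries and is a description. Of 13159 peaks at the starts of other protein-coding genes over 100 kb from any member, the one most like the Irf7 start peak was at Socs1 and Tnp2 (r = 0.90), followed by Oas3 (0.88) and Rnf213 (0.86). SOCS1 is a feedback inhibitor of cytokine receptors, and OAS3 is an antiviral enzyme. The Irf4 start peak was most like those of Tpst2 (0.94), Phlpp1 (0.92) and H1f1 with H4c1 (0.91), and the Irf1 start peak like those of Ppp6r2 (0.93), Elovl2 (0.92) and Stx3 (0.92). The best matches of the others were Nol10 for Irf2 (0.95), Map2k1 for Irf8 (0.92), Kansl1 for Irf3 (0.91), Nectin4 for Irf5 (0.89) and Dbnl for Irf9 (0.88).

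Larger fold changes were seen away from the starts. A peak 5.1 kb upstream of the Irf2 start (chr8:46734416-46734946, 531 bp) was nearly closed in control, with 1 and 5 counts in the Ctrl libraries, or 0.109 and 0.482 CPM. Its values were 0.610 and 0.722 in P, 2.61 and 1.94 in L, 1.78 and 3.27 in H, 4.19 and 5.11 in S, 3.98 and 3.01 in cG and 2.36 and 1.99 in Z. For pairs they were 1.79 and 1.12 in PL, 3.16 and 3.03 in PH, 3.28 and 1.82 in LH, 2.63 and 4.24 in PS, 5.30 and 5.23 in PcG, 5.95 and 5.14 in ScG, 4.09 and 5.62 in ZS and 5.31 and 4.56 in ZcG. For triplets they were 2.80 and 3.47 in PLH, 5.66 and 7.04 in PScG and 6.37 and 5.93 in ZScG. Both libraries of every stimulation lay above both Ctrl libraries, and P was the lowest stimulation. The peak rose in 16 of 17 stimulations, by 2.25 (PL) to 4.34 (PScG, SE 0.49, edgeR adjusted p = 2.8e-14), while P gave 1.1 ± 0.69 (adjusted p = 0.27). With a library left out, 15 of the 16 calls held and PL was lost. Z, ZcG, ScG and ZScG, which share the mitochondrial share of Ctrl, gave 2.78, 3.97, 4.14 and 4.29. These fold changes rest on few control counts, and their size depends on them.

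Peaks inside Irf2 had mostly lower calls under TMM scaling. The peak 52.4 kb downstream of the start (chr8:46791921-46792311) had 2.95 and 4.44 CPM in Ctrl and 0.215 and 0.645 in ZS, and it fell in 14 stimulations, by 1.29 to 3.04, of which 9 held with any library left out. The peak 105.3 kb downstream (chr8:46844441-46845581), near the end of the gene, had 17.3 and 12.1 CPM in Ctrl, 6.60 and 5.79 in ScG and 3.35 and 4.27 in ZScG. It fell in 13 stimulations, by 0.56 to 1.95, of which 4 held with any library left out. Under total-count scaling 7 remained called and 4 of the 17 values were above 0. Of the 19 body peaks of Irf2, 12 were called only lower and 2 only higher. Under total-count scaling these counts were 10 and 4, with 2 called both ways, and the calls of body peaks fell from 92 to 45 lower and grew from 11 to 25 higher.

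At Irf1, the most uniform change was a loss. A peak 25.0 kb downstream of the start, at chr11:53794460-53795591 (chosen after its values were seen, since it was the only member called in all 17 stimulations) had 16.3 and 19.8 CPM in Ctrl. It had 5.72 and 5.34 in P, 7.21 and 5.82 in L, 8.32 and 8.44 in H, 6.41 and 7.93 in S, 6.76 and 6.45 in cG and 8.14 and 9.34 in Z. In pairs it had 5.53 and 4.18 in PL, 5.86 and 6.12 in PH, 6.25 and 5.00 in LH, 4.71 and 6.02 in PS, 5.91 and 5.74 in PcG, 4.37 and 6.77 in ScG, 8.82 and 8.48 in ZS and 5.91 and 6.79 in ZcG. In triplets it had 6.46 and 5.38 in PLH, 3.32 and 5.69 in PScG and 5.48 and 5.52 in ZScG. All stimulated libraries lay below both Ctrl libraries, with Z and ZS the least and PScG the most changed. It fell by 1.04 (Z) to 1.98 (PScG) on the log2 scale, and all 17 calls held with any library left out and under total-count scaling. Its neighbour 27 kb downstream (chr11:53796725-53797330) rose, from 1.20 and 1.45 CPM in Ctrl to 5.95 and 5.29 in S, 4.69 and 5.95 in cG and 6.09 and 6.38 in PS. It was called in 14 stimulations (1.1 to 2.22), of which 8 held with any library left out. The values in L, Z and LH were 0.76, -0.06 and 0.46 and did not pass.

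Closer to Irf1, a peak 6.5 kb upstream of the start (chr11:53762501-53764593) rose in 15 stimulations by 0.29 to 0.80, from 38.6 and 39.6 CPM in Ctrl to 69.2 and 66.9 in cG, and 11 of these calls held with any library left out. The peak 11.8 kb downstream of the start (chr11:53781134-53782569) rose in 12, by 0.87 to 2.07, from 1.09 and 2.80 CPM in Ctrl to 7.96 and 8.74 in cG, of which 3 held. Without Ctrl replicate 1 it was called in 3 stimulations, and without Ctrl replicate 2 in 15. One peak fell in ZScG alone, 16.5 kb downstream (-2.24 ± 0.83, edgeR adjusted p = 0.028), and this call was lost with a library left out.

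Irf4 and Irf8, whose start peaks moved in opposite directions, both had distal peaks that rose. At Irf4, the peak 9.3 kb upstream (chr13:30739752-30740154) rose in 13 stimulations, by 1.84 to 3.19, and 8 held with any library left out. It had 0.219 and 0.482 CPM (2 and 5 counts) in Ctrl and 2.87 and 3.77 CPM in PScG. The peak 33.1 kb downstream of the Irf4 start (chr13:30781759-30782816) followed S and cG. It had 1.97 and 1.16 CPM in Ctrl. Single ligands gave 1.14 and 2.09 in P, 1.91 and 2.16 in L, 1.72 and 2.07 in H, 5.69 and 5.90 in S, 3.74 and 2.58 in cG and 1.57 and 1.99 in Z. Pairs gave 1.29 and 3.16 in PL, 2.37 and 1.63 in PH, 1.42 and 1.90 in LH, 5.77 and 6.42 in PS, 4.13 and 4.46 in PcG, 6.88 and 4.59 in ScG, 2.90 and 4.61 in ZS and 2.90 and 4.01 in ZcG. The triplets gave 2.48 and 3.10 in PLH, 7.63 and 8.89 in PScG and 5.36 and 5.65 in ZScG. The libraries of PScG were the highest, and Ctrl, P, LH, Z, H, PH and L the lowest. It was called in 9 stimulations, all those that contain S or cG, by 1.02 (cG) to 2.42 (PScG, edgeR adjusted p = 3.7e-09), and in none of the 8 without them. Of the 9 calls, 5 held with any library left out. Tested directly, S exceeded L by 1.5 ± 0.32 (SE, adjusted p = 0.00023) and P by 1.83 ± 0.34 (4.4e-06). The lowest change at this locus was at the end of the gene body, 17.8 kb downstream of the start, in ScG (-1.44 ± 0.57, adjusted p = 0.044), a call lost with a library left out.

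At Irf8, the peak 20.2 kb upstream (chr8:120715802-120716544) was the 1 member called both ways, and it had 6.56 and 5.50 CPM in the Ctrl libraries. Values with 1 ligand were 1.98 and 3.03 in P, 6.57 and 6.90 in L, 5.46 and 5.95 in H, 11.4 and 9.66 in S, 9.71 and 11.8 in cG and 6.17 and 4.62 in Z. Values with pairs were 7.18 and 8.66 in PL, 4.34 and 5.11 in PH, 7.79 and 7.22 in LH, 7.90 and 8.28 in PS, 8.36 and 7.84 in PcG, 8.09 and 11 in ScG, 8.92 and 9.31 in ZS and 8.57 and 6.79 in ZcG. Values with triplets were 5.15 and 6.42 in PLH, 8.89 and 8.89 in PScG and 7.37 and 8.69 in ZScG. The P libraries were the lowest of all and did not overlap with any other group, while cG, S, ScG and ZS were the highest. The peak fell with P (-1.25 ± 0.27 SE, edgeR adjusted p = 0.00016) and rose with S (0.81 ± 0.23), cG (0.84 ± 0.23), ScG, ZS and PScG. The P call held with any library left out, and the 5 calls of a rise did not. Another distal peak, 23.8 kb downstream of the Irf8 start (chr8:120759739-120760635), rose in S, cG, PS, PcG, ZS and PScG by 0.77 to 1.45, from 4.26 and 3.47 CPM in Ctrl to 11.7 and 9.53 in PScG, and 2 of these calls held. The largest fall at Irf8 was 32.4 kb downstream, in ZcG (-1.5 ± 0.58, adjusted p = 0.048), and did not hold with a library left out.

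**Figure D3:**
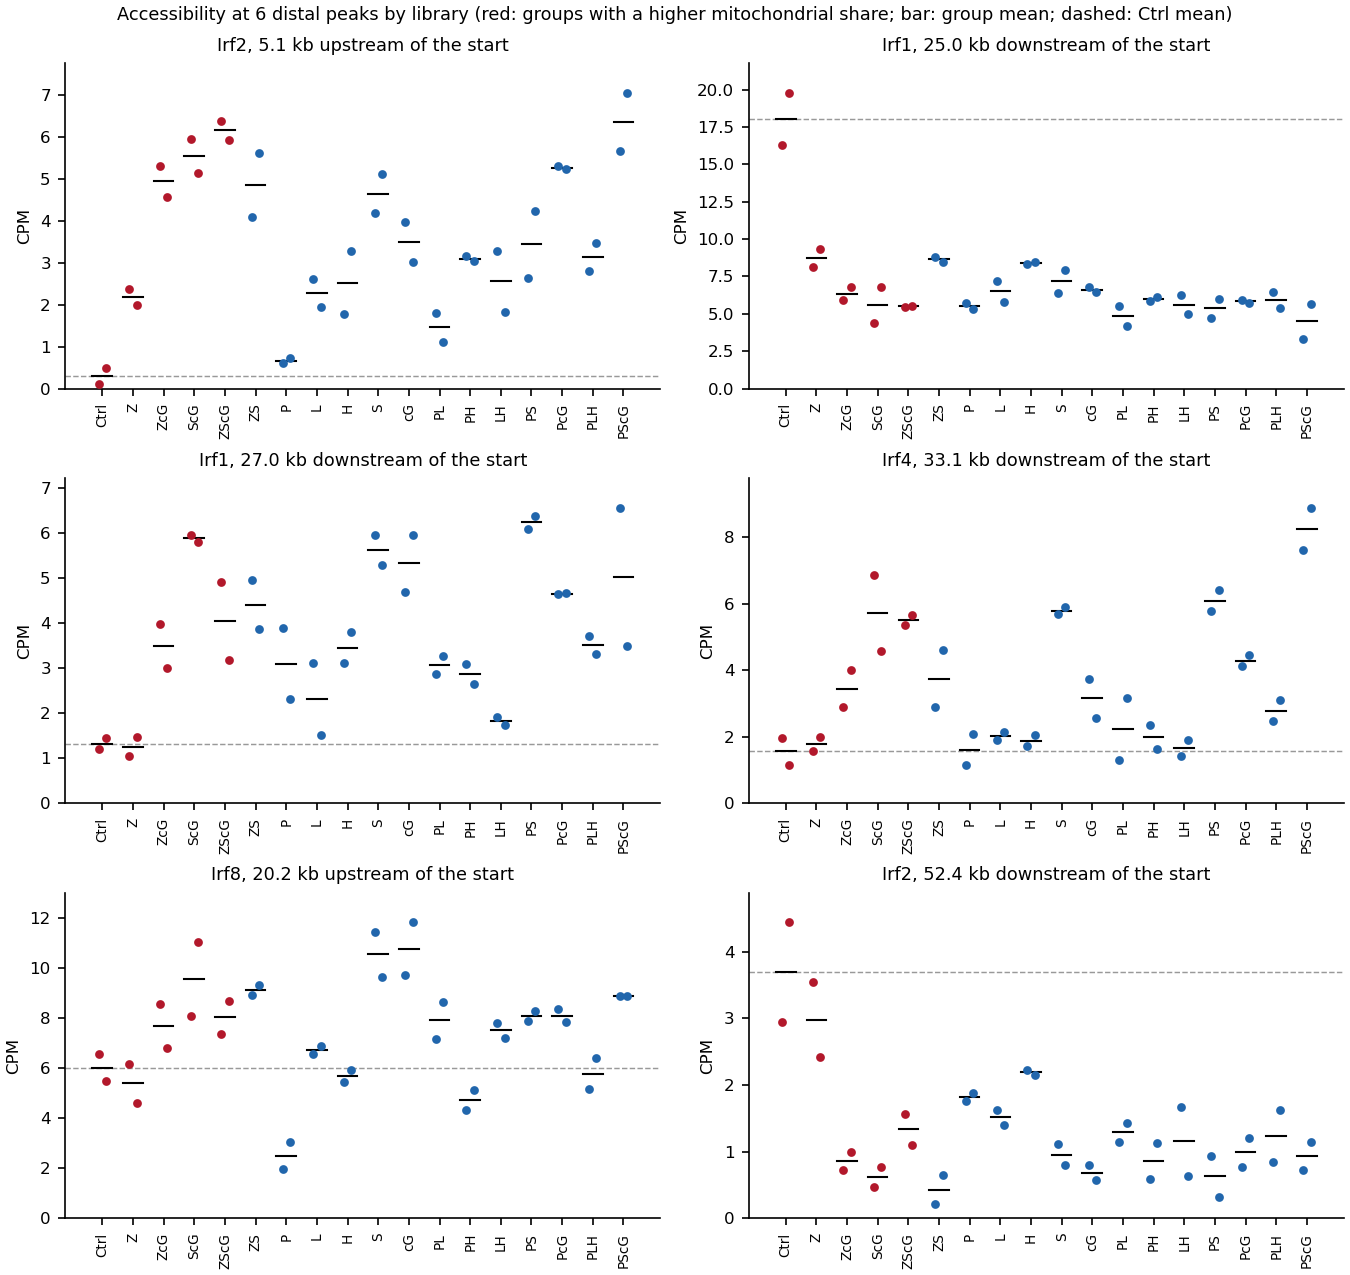
CPM per library at 6 distal peaks of Irf1, Irf2, Irf4 and Irf8 is plotted by group (points: libraries; bar: group mean; dashed line: Ctrl mean; red: groups with the higher mitochondrial share). At the Irf1 peak 25.0 kb downstream every stimulated library lies below Ctrl, and at the Irf4 peak 33.1 kb downstream the group means with S or cG stand above the others, though single libraries overlap.

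The remaining loci lie among other genes. The peak 31.2 kb downstream of the Irf5 start, which overlaps Tnpo3, rose in 14 stimulations by 1.26 to 2.11 (highest in LH), from 1.42 and 1.06 CPM in Ctrl to 5.44 and 5.24 in LH, and 10 held with any library left out. One peak 16.5 kb downstream, also over Tnpo3, fell in PScG (-1.63 ± 0.64, edgeR adjusted p = 0.034). At Irf9, the peak 9.7 kb upstream, which overlaps Rnf31, rose in 11 stimulations by 1.73 to 2.68, and 5 held. It had 0.328 and 0.482 CPM (3 and 5 counts) in Ctrl and 2.63 and 2.72 CPM in cG. The Irf9 peak 17.7 kb upstream, at the start of Emc9, fell in PL (-1.02 ± 0.40, adjusted p = 0.043). At Irf3, the peak 14.3 kb upstream, which overlaps Prmt1, rose in 8 stimulations by 0.95 to 1.46 (highest in PScG), of which 1 held, and the peak at the start of Scaf1, 18.5 kb downstream of the Irf3 start, was lower in PH (-0.28 ± 0.11, adjusted p = 0.046), where total-count scaling gave 0.050. None of these 3 lower calls held with a library left out.

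**Figure D4:**
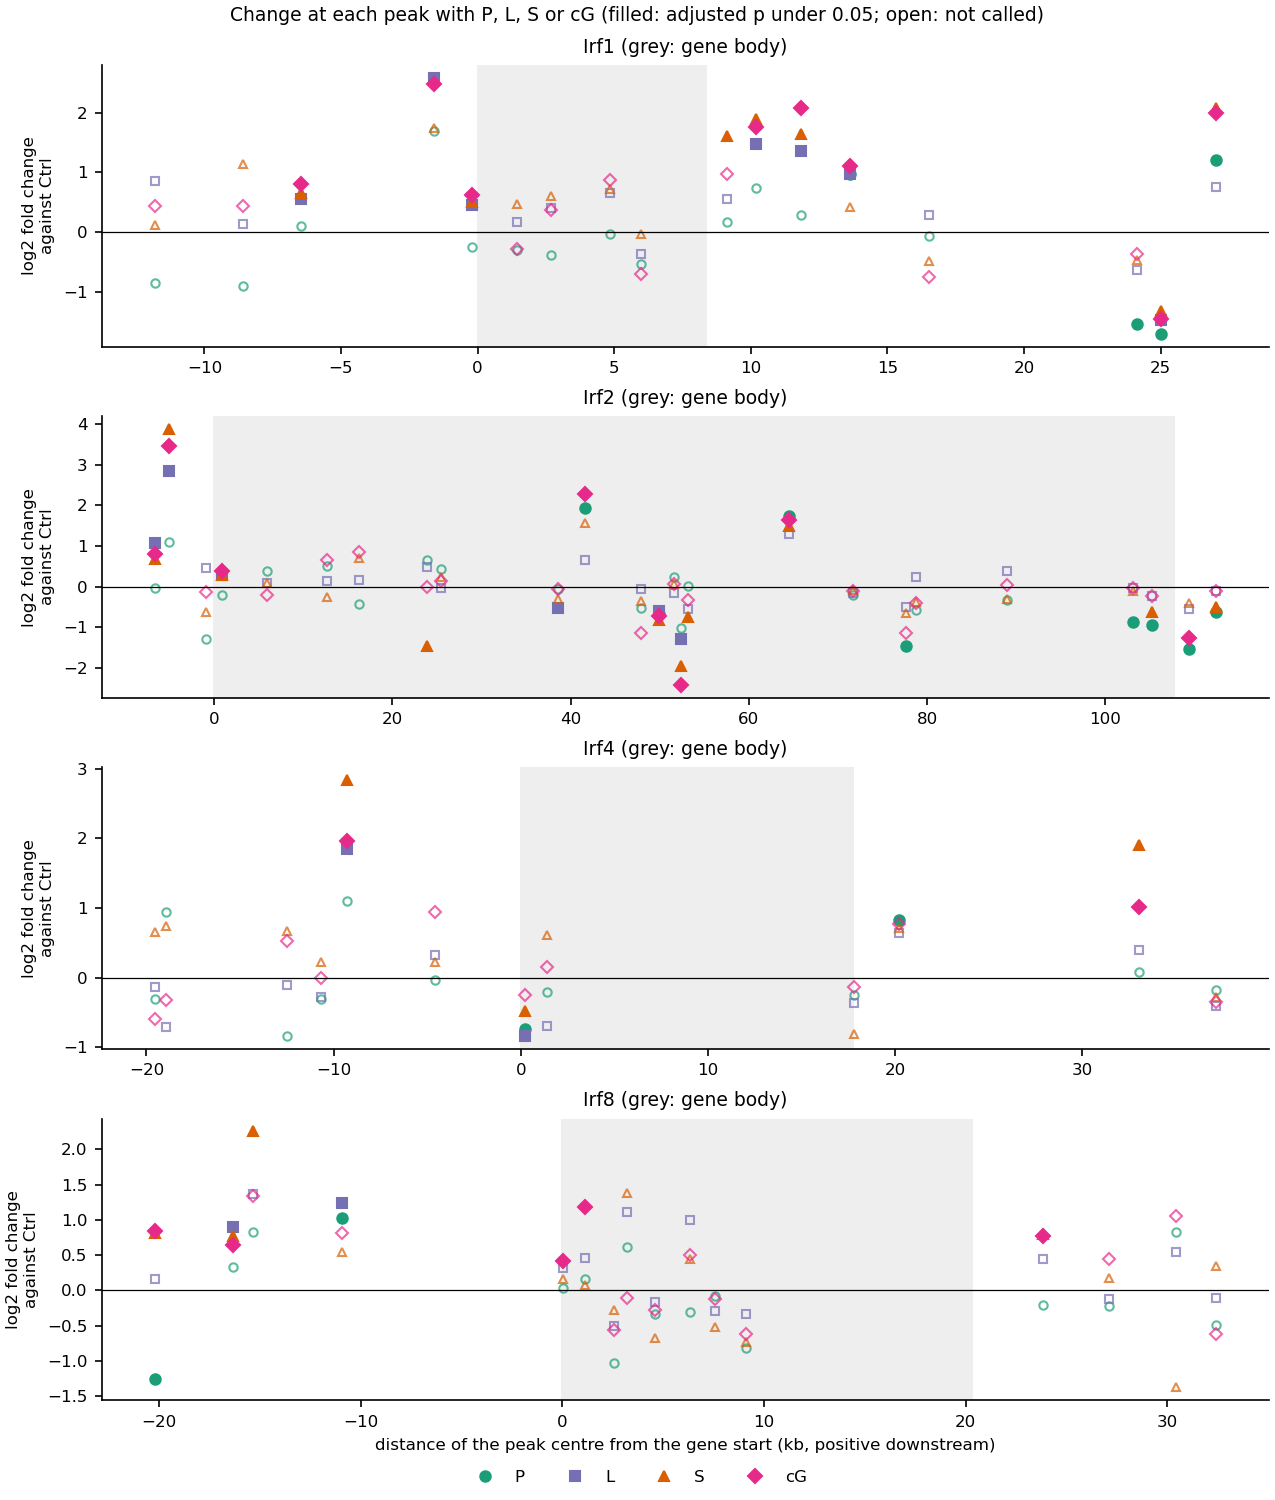
The log2 fold change against Ctrl of every tested peak at Irf1, Irf2, Irf4 and Irf8 is plotted by distance from the gene start in kb, for P, L, S and cG (filled symbols: adjusted p under 0.05; grey: gene body). With TMM scaling, filled symbols lie mostly above 0 upstream of Irf2 and below 0 within its body.

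P was compared with L, H, S and cG, and most of the called IRF-locus peaks were higher with the other ligand. This comparison stays among groups with the lower mitochondrial share and uses no Ctrl library. Against P, L was higher at 18 peaks and lower at 0 (5.19% and 5.87% of all tested peaks), and H was higher at 13 and lower at 2 (4.96% and 7.18%). S was higher at 22 and lower at 4 (11.6% and 12.9%), and cG was higher at 29 and lower at 1 (11.1% and 12.7%). The median log2 difference from P over the 107 peaks was 0.46 for L, 0.35 for H, 0.38 for S and 0.37 for cG, against 0.01 to 0.04 over all peaks. These 4 comparisons share the P libraries.

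The peak 20.2 kb upstream of Irf8 had the lowest adjusted p: cG exceeded P there by 2.09 ± 0.25 (SE, edgeR adjusted p = 1.1e-12), S by 2.06 ± 0.25 (1.4e-12), L by 1.42 ± 0.26 (8.6e-06) and H by 1.17 ± 0.27 (0.00052). At the Irf1 start peak cG exceeded P by 0.87 ± 0.12 (3.7e-10), and at the Irf1 peak 6.5 kb upstream by 0.70 ± 0.10 (2.1e-09). The Irf7 start peak was higher than in P by 0.76 ± 0.12 with L and by 0.77 ± 0.12 with cG. At the Irf4 start peak the difference of cG from P was 0.49 ± 0.19 (adjusted p = 0.047). All of these calls held with any library left out, other than H against P at the Irf8 peak, lost without P replicate 1, and the Irf4 call, lost without any 1 of its 4 libraries.

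Between S and cG, which reach IRF3 through different sensors, no IRF-locus peak was called by edgeR (0.949% of all peaks were), and DESeq2 called 0. An unadjusted p under 0.05 was found at 16 of the 107. S was higher than L at 7 peaks and lower at 2 (5.05% and 4.8% of all), and cG was higher than L at 3 and lower at 0 (3.32% and 3.91%). Either way, S and H differed at 8 peaks (9.06% of all), cG and H at 9 (7.36%) and L and H at 1 (3.71%).

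**Figure D5:**
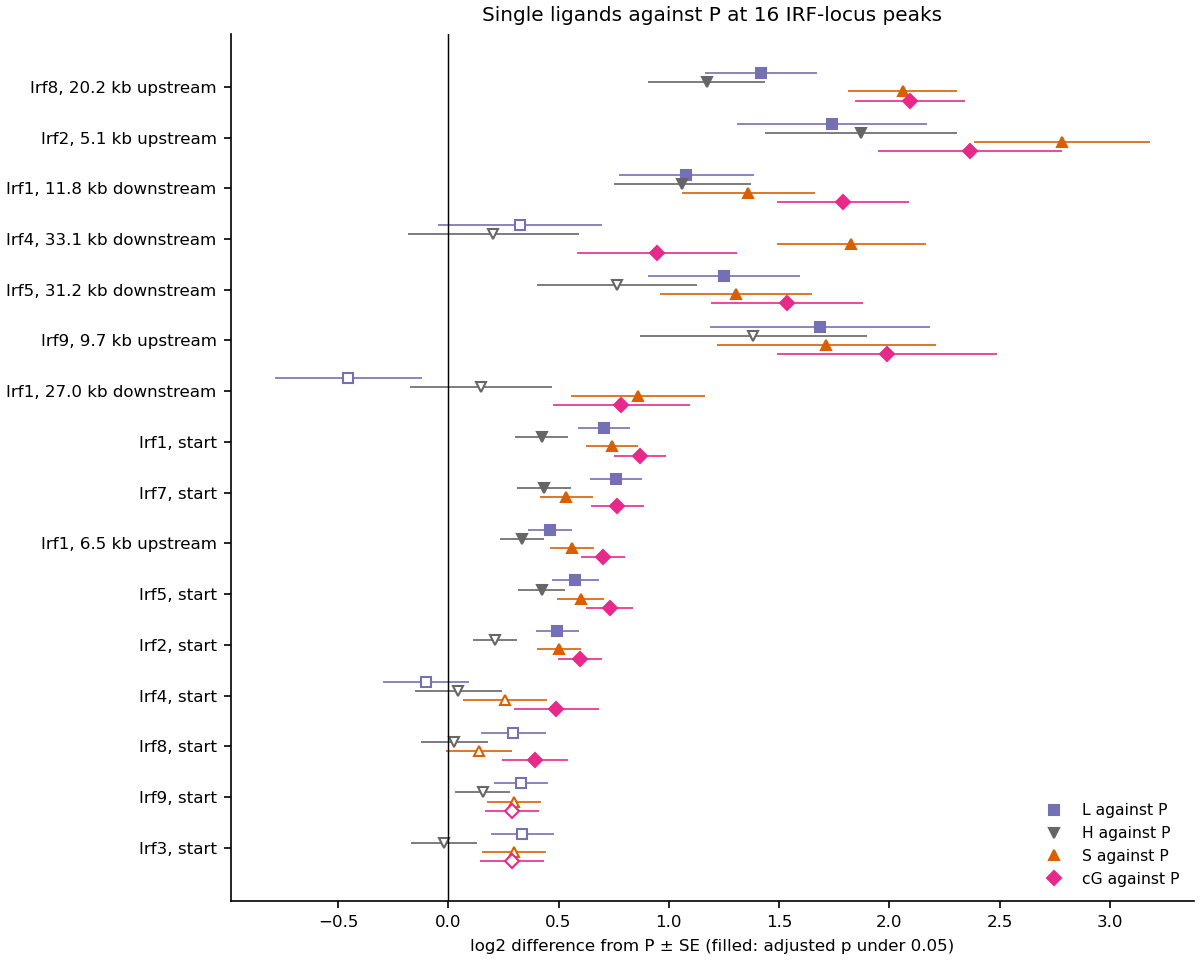
Points give the log2 difference from P, with its SE, of L, H, S and cG at 16 IRF-locus peaks, the 8 start peaks included (filled: adjusted p under 0.05). At the peak 20.2 kb upstream of Irf8 all 4 ligands are filled and lie between 1.17 and 2.09.

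Adding a ligand to another was tested next. Over the 16 comparisons of a pair with each of its single ligands, 57 calls were higher and 53 lower, 6.43% of the tests against 6.48% for all peaks (3.56% higher and 2.92% lower). Total-count scaling gave 79 higher and 130 lower, with 3.93% and 4.09% for all peaks. PS was higher than P at 14 peaks and lower at 5 (9.36% and 8.78% of all), and PcG was higher than P at 13 and lower at 2 (7.39% and 7.35% of all). The peak 5.1 kb upstream of Irf2 had 0.610 and 0.722 CPM in P and 5.30 and 5.23 in PcG, a difference of 2.96 ± 0.39 (SE, edgeR adjusted p = 5.8e-10). The peak 20.2 kb upstream of Irf8 rose by 1.68 ± 0.25 from P to PS (1.7e-08), and the peak 33.1 kb downstream of Irf4 by 1.9 ± 0.33 (2.2e-06). In the other direction, adding P to S changed 0 peaks by edgeR (2.93% of all; 16 with an unadjusted p under 0.05 and 1 by DESeq2).

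Adding a ligand to cG lowered several members. PcG was lower than cG at 9 peaks (3.52% of all were lower), ScG was lower than cG at 8 (1.92%) and ZcG at 6 (1.04%), and these 3 comparisons share the cG libraries. At the Irf1 peak 11.8 kb downstream, the log2 difference of PcG from cG was -1.27 ± 0.28 (SE, edgeR adjusted p = 0.00041). At the Irf7 start peak the libraries gave 39.6 and 39.3 CPM in cG and 26.6 and 27.1 in ScG, without overlap, a difference of -0.56 ± 0.12 (0.0011). ScG and ZcG have the higher mitochondrial share and cG the lower, so those 2 comparisons cannot be told apart from the share, whereas PcG and cG both have the lower.

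The pair interaction, AB - A - B + Ctrl on the log2 scale, measures how far the change with a pair is from its single-ligand changes added up. Values below 0 mean that it is less. Over the 8 pairs, 12 interactions at IRF-locus peaks were called above 0 and 44 below (2.07% and 3.1% of the tests of all peaks). Total-count scaling gave 5 above and 133 below, with 0.601% and 9.18% for all peaks. ScG gave 1 above and 22 below (6.92% and 7.52% of all peaks), with a median of -0.48 over the 107 peaks against -0.02 over all. LH gave 8 below (2.62% of all were lower) and 1 above, for which the share of all peaks is not given. Either way, PL had 4 (6.75% of all), PH 1 (1.55%), PS 4 (4.59%), PcG 5 (3.27%), ZS 6 (3.43%) and ZcG 4 (2.49%).

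The Irf7 start peak had the lowest adjusted p among interactions. Its ScG value was -1.41 ± 0.18 (SE, edgeR adjusted p = 3.7e-11), that is, S alone and cG alone each rose by 0.85 and 1.09 but ScG by 0.53. Its interaction was also below 0 in LH (-1.01 ± 0.17, 1.1e-05), ZcG (-0.78 ± 0.18), PL (-0.68 ± 0.18), PS (-0.68 ± 0.17) and PcG (-0.64 ± 0.17). The ScG and LH calls held with any of the 8 libraries left out, and the other 4 did not. The Irf1 peaks 6.5 kb upstream and 11.8 kb downstream had ScG interactions of -0.94 ± 0.14 (7.9e-08) and -2.52 ± 0.44 (2.3e-06), the Irf2 peak 5.1 kb upstream of -3.21 ± 0.63 and the Irf9 peak 9.7 kb upstream of -3.82 ± 0.76, and all 4 held with any library left out. The Ctrl libraries had only 1 and 5 counts at this Irf2 peak and 3 and 5 at this Irf9 peak, so the size of both values rests on few counts. In the ScG interaction the 2 groups with the higher mitochondrial share, ScG and Ctrl, stand against the 2 with the lower, S and cG, so the interaction and the share cannot be told apart. In LH, 1 of the 4 groups, Ctrl, has the higher share.

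Few peaks were called between triplets and their pairs, at these loci and over all peaks. No IRF-locus peak was called by edgeR or DESeq2 in PLH against PL or PH, or in PScG against PS or PcG. In these comparisons an unadjusted edgeR p under 0.05 was found at 15, 8, 9 and 14 of the 107 peaks, respectively. Over the 9 comparisons of a triplet with a pair, 2 calls were higher and 4 lower (0.623% of the tests, against 1.11% for all peaks, 0.497% higher and 0.61% lower). Total-count scaling gave 11 higher and 1 lower, with 1.29% and 0.247% for all peaks. The Irf2 peak 105.3 kb downstream was lower in ZScG than in ZS, with a log2 difference of -1.39 ± 0.25 (SE, edgeR adjusted p = 0.0027). The Irf8 peak 23.8 kb downstream was higher in PScG than in ScG by 0.83 ± 0.25 (0.03), and the Irf1 peak 11.8 kb downstream was higher in ZScG than in ZcG by 1.08 ± 0.32 (0.04). Each of these 3 calls was lost with at least 1 library left out, among them ZScG replicate 1 for the Irf2 and Irf1 peaks and either PScG library for the Irf8 peak. ZScG and ScG have the higher mitochondrial share and ZS and PScG the lower (with 1 ZS library near the former), so the Irf2 and Irf8 differences cannot be told apart from the share, whereas ZScG and ZcG both have the higher.

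The triplet interaction takes the single ligands and Ctrl into account as well (ABC - AB - AC - BC + A + B + C - Ctrl). No IRF-locus peak was called for PLH (0.783% of all; 15 with an unadjusted p under 0.05 and 1 by DESeq2), 2 were called for PScG (2% of all) and 4 for ZScG (1.89%), all above 0. The lowest adjusted p was at the Irf1 peak 11.8 kb downstream in ZScG (2.76 ± 0.65, adjusted p = 0.0063), lost without Ctrl replicate 1 or Z replicate 1. The Irf9 peak 9.7 kb upstream (4.34 ± 1.08, 0.011, with 3 and 5 counts in Ctrl) was lost without ZScG replicate 1, and the Irf7 start peak (0.98 ± 0.25, 0.016) was lost with any 1 of 4 libraries left out. None of the 6 calls held in every such fit. Total-count scaling gave 39 calls above 0 and 0 below over the 3 triplets, against 6 and 0. Over all peaks, 4.98% of the tests were then above 0 and 0.183% below, against 0.837% and 0.722% under TMM scaling. The groups with the higher mitochondrial share are not balanced in these interactions, by 2 groups for PScG and by 1 each for PLH and ZScG, so that the triplet interactions cannot be told apart from the share either.

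Genes around the IRFs in the same pathway were read at their start peaks, and all 27 of the list had one. Of the 13 receptors, adaptors and kinases upstream of IRFs, Tbk1, the kinase that phosphorylates IRF3, rose in 16 stimulations (cG 0.55 ± 0.09 SE, edgeR adjusted p = 5.7e-07), Traf3 in 8, the RNA sensor genes Ifih1 in 6 and Ddx58 in 4, and Ikbke in 1. Tlr4, which encodes the LPS receptor, fell in 16, Tlr2 in 2, and Myd88 and Ticam1 in 1 each. Mavs, Tmem173 (STING), Mb21d1 (cGAS) and Traf6 were never called. Among the 8 genes of interferon receptor signalling, Socs1 rose in all 17 (cG 1.06 ± 0.09, adjusted p = 4.8e-20; L 0.94 ± 0.09, adjusted p = 1.8e-16), Stat2 in 10 and Usp18 in 3, while Tyk2 fell in 6 and Jak1 in 3. Ifnar1 and Ifnar2 were not called. Of the 6 partners and cofactors, Irf2bp2, an IRF2 corepressor gene, fell in 14, Batf3 in 11, Irf2bpl in 8, Spi1 (PU.1) in 6 with a rise in 1, and Irf2bp1 in 1, and Batf was never called. Adding the shift that total-count scaling gives to all peaks, from -0.057 to 0.42 on the log2 scale, kept 60 of the 69 lower calls below 0. The 67 higher calls could not turn under such shifts, since the lowest of them was 0.28 (Ifih1 in L), so they were not put to a test. Whether calls would pass again was not tested. Over the list, L gave 8 higher and 5 lower start peaks, cG 9 and 1, P 2 and 4, and PH 2 and 8 of 27 (for PH, 13.6% and 12.8% of all tested peaks were higher and lower, and the shares for L, cG and P stand above).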

How the data were processed

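The deposited table holds the authors' raw counts per peak, whole numbers for 119751 peaks in 36 libraries, with peak positions in a deposited list. Alignment with Bowtie2 2.2.9 to mm10, peak calling with MACS2 (version given as 1.4), bedtools and featureCounts are named in the submitters' processing notes. Whether peaks were called on pooled libraries and how read ends were shifted are not given in the sources used here. Groups and replicate numbers come from the sample titles, and all count columns matched a sample. Total counts were 19097027 to 39977088 per library, and amplified reads carry no molecular identifiers.

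The mitochondrial peak and 286 peaks with low counts (filterByExpr, minimum count 10, minimum total 15) were left out. The other 119464 entered, with TMM scaling, a quasi-likelihood fit of edgeR 4.0.16 (R 4.3.3; glmQLFit, robust, trended dispersion, 18 residual degrees of freedom) that held all groups. Calls have a Benjamini-Hochberg adjusted p under 0.05 over all tested peaks, in each of 63 contrasts. The method was tested on simulated data. Recovery was read there for P against Ctrl, at peaks that were not low in counts. Low-count peaks and the choice of scaling were not covered. Tables were made with pandas 2.3.3 and figures with matplotlib 3.10.9. Alternatives were DESeq2 1.42.0 size factors, its Wald test, total counts, no filter, the mitochondrial peak kept, thinning to 8181254 counts, a replicate block and leaving out each library. In the last, the dispersion trend of all 36 libraries was kept.

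Named peaks are the start peak of each member, its other peaks with the highest and lowest called change against Ctrl (mean CPM of at least 1 and both libraries beyond Ctrl), and the 3 with the lowest adjusted p in each other family of contrasts. Members, lists and rules were chosen with earlier results of these data known. Replicates within groups correlated at 0.901 to 0.958 (log2 CPM) and differed by more than counting error (chi-square per degree of freedom 2.08 to 3.31). Values of some genes on the marker and pathway lists, which count in the list totals, are not reported here.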

Additional observations from a re-analysis of the deposited data

Results flagged for a closer look

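In 8 pair interactions the effect of a ligand on some IRF-locus peaks differed with and without a partner ligand, by edgeR's test of the interaction itself. ScG had 23 such peaks (6.92% of all tested peaks were called above 0 and 7.52% below). LH had 9 in both directions together, and 2.62% of all peaks were called below 0 there. The share above 0 for LH is not given, so these 9 have no matching share of all peaks. ZS had 6 (3.43% of all either way), PcG 5 (3.27%), PL 4 (6.75%), PS 4 (4.59%), ZcG 4 (2.49%) and PH 1 (1.55%). Triplet interactions were called at 2 peaks for PScG (2% of all) and 4 for ZScG (1.89%). The Irf7 start peak was among the peaks called in PL, LH, PS, PcG, ScG and ZcG and in both triplets. Ctrl and ScG have the higher mitochondrial share of counts and S and cG the lower, so for ScG the interaction cannot be told apart from the share. In the other pair interactions except ZS, the share is unbalanced by 1 group. In the triplet interactions it is unbalanced by 2 groups for PScG and by 1 for ZScG.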

How the results depend on the processing

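Leaving out 1 library (with the dispersion trend of all 36 kept) lowered most counts of called IRF-locus peaks: P 19 to between 8 and 12, L 27 to 17 to 19, H 14 to 6 to 9, S 34 to 20 to 28, cG 35 to 20 to 27, Z 5 to 3 in each case, PL 28 to 16 to 18, PH 26 to 13 to 21, LH 16 to 12 to 15, PS 34 to 22 to 25, PcG 40 to 25 to 29, ScG 33 to 20 to 22, ZS 29 to 19 to 24, ZcG 28 to 15 to 24, PLH 29 to 16 to 20, PScG 45 to 28 to 32 and ZScG 31 to 23 to 26. The sums gave 87 to 110 (119) between single ligands, 86 to 110 (110) for pairs against singles, 35 to 56 (56) for pair interactions, 2 to 6 (6) for triplets against pairs and 3 to 7 (6) for triplet interactions, where contrasts without the left-out library kept their calls. A fit with 1 library in an arm assumes that it varies like the other groups. Thinning to one depth gave 9 for P, 8 for H, 18 for PL, 16 for PH, 23 for PcG, 21 for ScG, 17 for ZcG and 17 for PLH, and sums of 74 (single ligands), 60 (pairs against singles), 31 (pair interactions) and 2 (triplets against pairs). Fewer counts were tested there, so depth limits these calls. Total-count scaling gave 22 for H and sums of 209 (pairs against singles), 138 (pair interactions), 12 (triplets against pairs) and 39 (triplet interactions), with the first 3 sums split into 79 higher and 130 lower, 5 and 133, and 11 and 1, and the cause was not tested. The shares of all peaks under this scaling stand beside these sums above. This scaling turned the Scaf1 start peak at Irf3 in PH to 0.050. The totals that follow pool unlike alternatives. At named peaks, thinning left 49 called changes with the direction only, and total counts left 19. Each other refit of all libraries left at most 6, and leaving out a library gave most of the rest. Over all alternatives, 2184 of 2501 values for called changes at named peaks kept their direction and call, 316 kept the direction only and 1 turned, while 100 of 2948 uncalled ones became called.

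Replicate numbers did not pair the libraries: over 153 pairs of groups, the correlation of deviations ran from -0.040 to 0.030. The replicate block gave 17 calls for P, 27 for L, 13 for H, 34 for S, 35 for cG and 5 for Z, and sums of 117, 110, 55, 6 and 6 in the order above.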
